A study of Mus musculus with 6 samples.

Results

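The insulin-like growth factor (IGF) system was followed in mGB2, a mouse glioblastoma line that its labels call glioblastoma stem cells, through 10 genes matched by name among the 49585 listed: the ligand Igf1, the receptors Igf1r and Insr, the receptor substrates Irs1 and Irs2, and the binding proteins Igfbp2, Igfbp3, Igfbp4, Igfbp5 and Igfbp7. The study set 3 libraries of genotype Bcat1-KO against 3 of control cells (NT in the series text), all untreated. Cells of both genotypes grew attached to matrix-coated plates in a DMEM:F12 stem cell medium supplemented with N2, B27 and the growth factors EGF and FGF. RNA was isolated once they were confluent. The labels do not say how the knockout was made, whether it is 1 clone, or whether replicates were separate cultures, and the p-values cover only the variation among these 6 libraries, which may be technical. All 10 genes are annotated as protein coding, and their coordinates are those of mm10.

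IGF-1 and IGF-2 are secreted growth factors that act through the IGF-1 receptor, a tyrosine kinase, and insulin acts through the closely related insulin receptor. Both receptors phosphorylate the IRS adaptors, which recruit PI3-kinase and so activate AKT and inhibit the FOXO transcription factors. The binding proteins hold IGFs in the extracellular space, where they block or prolong access to the receptor, and several also bind matrix or cell surface. IGFBP2 is known as a protein of developing brain and of glioma. The N2 and B27 supplements contain insulin.

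Among the 10 genes, the largest changes in the knockout were those of binding proteins. Igfbp3 was 15.1-fold higher, Igfbp4 1.75-fold and Igfbp5 1.48-fold higher, while Igfbp2 was lower at 0.717 of its control level. Igf1r, Irs1 and Irs2 fell by 0.28 to 0.33 on the log2 scale, and Insr did not pass the test. Igf1 and Igfbp7 were at or near 0 counts in every library. Of the 10 genes, 8 passed the filter on low counts and were tested, 3 were higher and 4 lower (quasi-likelihood F test in edgeR, threshold of 0.05 on p adjusted by Benjamini-Hochberg over all 14020 tested genes). In the same comparison 62.3% of all tested genes were called, 32% higher and 30.3% lower, so the size of each change is given with its call. In 6 of the 8 tested genes the knockout and control libraries did not overlap, beside 67.7% of all tested genes.

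**Figure D1:**
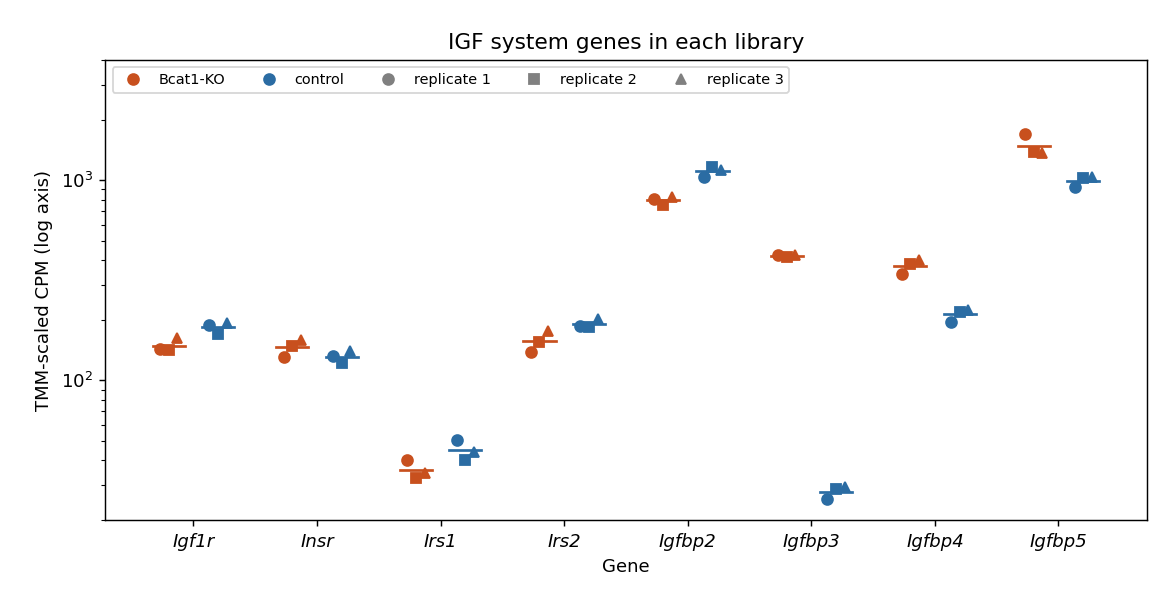
Level of the 8 tested genes in each library, in TMM-scaled CPM on a log axis, with Bcat1-KO left of control, a symbol for each replicate and a bar at the group mean. The knockout libraries of Igfbp3 lie between 412 and 424 CPM, against 25.6 to 29.2 CPM in the control libraries, whereas the groups of Insr and Irs1 overlap.

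The libraries held between 29543157 and 37800648 strand-matched gene counts. In a single library 3 counts equal 0.078 to 0.103 CPM. Values in CPM (counts scaled to library size by the TMM method) compare 1 gene between libraries, and values in TPM (which also divide by exonic length) compare genes with each other. Reads of Bcat1 itself were lower (log2 fold change -0.41, adjusted p = 0.000327, and -0.65 with the median of the 51 genes around it removed), at 168 ± 11.5 CPM in the knockout, against 223 ± 9.26 CPM in the control (SD, n = 3 each, as for all means here). Of the 9 markers listed for the labelled cell type, all tested, 6 were higher and Nes, Msi1 and Egfr did not pass the test. Their summed level was 1960 to 2320 TPM in the knockout, against 843 to 879 TPM in the control, with Prom1 at 29, 32 and 31 counts in the knockout, against 0 in every control library. Of 12 microglia and macrophage markers 11 were under 1 TPM in every library, as were all 8 endothelial markers. Bcat1-KO replicate 1 stood apart from the other knockout libraries, with a chi-square per gene of 31.4 and 33.2 against them and 12.6 between those libraries. Control replicate 1 likewise stood apart from the other control libraries, at 12.8 and 12 against them and 4.01 between those libraries. The effect of leaving out Bcat1-KO replicate 1 is given below for Igfbp5, Insr, Irs2 and Irs1.

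No IGF or insulin ligand was expressed at a level these libraries could measure. Igf1 had 0, 0 and 0 counts in the knockout libraries and 3, 3 and 1 counts in the control libraries. A count of 0 allows up to 3 counts, which is 0.078 to 0.0831 CPM in a knockout library, and no control library lay above 3 counts, so no fold is given. Igf1 did not pass the filter on low counts, and without that filter edgeR called it lower (adjusted p = 0.0202). Igf2 had 1, 4 and 3 counts in the knockout, against 0, 1 and 0 in the control. Ins1 and Ins2 had 0 counts in every library. These limits cover counting error only. Parpbp, beside Igf1, had a log2 fold change of 0.04 (adjusted p = 0.793).

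Igfbp2, Igfbp5 and Igfbp4 were the 3 highest of the 10 genes per length in the control, and with Igfbp3 the 4 highest in the knockout. By mean TPM, Igfbp2 ranked 67 of 14020 tested genes in the knockout, against 49 in the control, and Igfbp5 ranked 153 in the knockout, against 232 in the control. Igfbp4 ranked 564 in the knockout, against 1095 in the control. Igfbp3 ranked 305 in the knockout, against 5825 in the control. In TPM the order in the knockout was Igfbp2 (1414 ± 60.2), Igfbp5 (806 ± 87.3), Igfbp3 (439 ± 5.81) and Igfbp4 (278 ± 26.0), and each of these neighbours was apart in every knockout library. In the control the order was Igfbp2 (1899 ± 91.6), Igfbp5 (524 ± 28.3), Igfbp4 (153 ± 10.4) and Igfbp3 (28.0 ± 1.85). Below them in the knockout came Irs2 (81.5 ± 11 TPM), Insr (34.8 ± 3.97 TPM), Igf1r (29.1 ± 2.60 TPM) and Irs1 (12.8 ± 1.17 TPM), where the libraries of Insr and Igf1r overlapped. In the control Irs2 (95.5 ± 5.17 TPM), Igf1r (34.6 ± 2.56 TPM) and Insr (30.2 ± 2.15 TPM) all had means above that of Igfbp3, and Irs1 was lowest (15.5 ± 1.96 TPM). There Igf1r and Insr overlapped, as did Insr and Igfbp3.

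The start regions of these 4 genes are shown because 3 of them rose and Igfbp2 fell. Each line gives the 250 bases before the RefSeq start site (GRCm38.p6, the build called mm10), written in the direction of transcription. The windows are chr11:7213924-7214173 on the minus strand for Igfbp3, chr11:99040994-99041243 on the plus strand for Igfbp4, chr1:72874866-72875115 on the minus strand for Igfbp5 and chr1:72824230-72824479 on the plus strand for Igfbp2. Capitals mark matches, on either strand, to the TATA box TATAAA, to the related words TATATA and to TTTAAA, to the GC box GGGCGG, the E-box CACGTG, the AP-1 site TGANTCA and the FOXO site GTAAACA, motifs chosen with the sequences in view.
Igfbp3: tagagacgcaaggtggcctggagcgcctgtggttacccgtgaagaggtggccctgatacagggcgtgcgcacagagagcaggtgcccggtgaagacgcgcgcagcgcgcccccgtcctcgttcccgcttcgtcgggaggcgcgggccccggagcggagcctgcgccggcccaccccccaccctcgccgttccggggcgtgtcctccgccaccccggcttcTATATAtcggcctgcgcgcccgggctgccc
Igfbp4: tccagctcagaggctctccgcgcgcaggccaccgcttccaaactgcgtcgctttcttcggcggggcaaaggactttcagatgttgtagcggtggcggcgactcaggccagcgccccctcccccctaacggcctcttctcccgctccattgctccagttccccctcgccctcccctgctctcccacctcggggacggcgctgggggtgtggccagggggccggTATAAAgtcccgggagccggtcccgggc
Igfbp5: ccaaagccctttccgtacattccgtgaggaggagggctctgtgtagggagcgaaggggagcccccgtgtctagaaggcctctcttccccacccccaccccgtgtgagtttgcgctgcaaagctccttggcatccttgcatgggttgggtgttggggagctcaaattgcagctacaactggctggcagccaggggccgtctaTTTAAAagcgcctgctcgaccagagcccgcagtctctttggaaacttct
Igfbp2: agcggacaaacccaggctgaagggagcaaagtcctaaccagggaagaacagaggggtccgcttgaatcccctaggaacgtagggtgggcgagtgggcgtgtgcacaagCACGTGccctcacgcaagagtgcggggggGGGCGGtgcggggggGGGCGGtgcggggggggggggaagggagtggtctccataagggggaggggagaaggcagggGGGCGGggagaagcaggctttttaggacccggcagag
In these windows Igfbp3 holds TATATA 30 to 25 bases before its start, and Igfbp4 holds TATAAA 28 to 23 bases before its start. Igfbp5 holds TTTAAA 49 to 44 bases before the RefSeq start, which is 30 to 25 bases before the start in the deposited table. Igfbp2 has none of these 3 AT-rich words and holds 3 GC boxes and 1 E-box, and a further RefSeq start of Igfbp2 holds 1 AP-1 match. No AP-1 or FOXO match lies in the 4 windows printed. Of all 32851 RefSeq windows of this length, 5.25% hold TATATA, 12.4% TATAAA, 12.1% TTTAAA, 32.7% a GC box, 6.02% the E-box, 6.75% an AP-1 match and 3.17% a FOXO match. A match describes the letters and shows no binding. The genes were picked by their direction here and the motifs with the sequences in view, so the difference between windows was not tested.

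Igfbp3 encodes the main carrier of IGFs in blood, which also restrains growth in many cell types. The gene (ENSMUSG00000020427.11, protein coding) lies on the minus strand of chromosome 11 from 7206086 to 7213923. It was measured at 424, 412 and 423 CPM in the knockout libraries and at 25.6, 28.6 and 29.2 CPM in the control libraries. The groups lay far apart and the knockout libraries differed little among themselves. The log2 fold change came to 3.92 (SE 0.08, adjusted p = 3.53e-12), a 15.1-fold rise with a 95% interval of 13.4 to 17.0. Only 3.27% of tested genes had a larger change in either direction, and 1 gene had both as large a rise and as high a mean level. A rise of at least 2-fold was called for 9.76% of tested genes, and among the 10 genes only for Igfbp3. A fall of at least 2-fold was called for 9.43% of tested genes and for 0 of the 10.

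The nearest tested gene on one side, Adcy1, an adenylate cyclase gene that ends 27579 bases away, rose as well (log2 fold change 5.53, SE 0.11, adjusted p = 3.53e-12). The next tested gene on the other side, Tns3, 1217728 bases away, had a log2 fold change of -0.01 (adjusted p = 0.889). The median over the 51 tested genes around Igfbp3 was 0.34, and with this local median removed its log2 fold change was 3.58. Igfbp1, a paralog that lies between Adcy1 and Igfbp3 (7197782 to 7202546), was not tested and had 0, 1 and 1 counts in the knockout, against 0 in every control library.

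Igfbp4 encodes a binding protein that mainly inhibits IGF action until it is cleaved by the protease PAPP-A. Igfbp4 (ENSMUSG00000017493.12, chromosome 11 from 99041244 to 99054392, plus strand) was measured at 342, 383 and 398 CPM in the knockout libraries and at 196, 220 and 225 CPM in the control libraries. The groups did not overlap, and the lowest knockout value was that of replicate 1. The log2 fold change came to 0.81 (SE 0.08, adjusted p = 3.35e-06), or 1.75-fold with a 95% interval of 1.55 to 1.98. It was the only other gene of the 10 that also passed a test against a 1.5-fold threshold (adjusted p = 0.0101). Pappa, which encodes PAPP-A, had 0 counts over the knockout libraries, against 1 over the control libraries, and its relative Pappa2 had 1 count in each group. Beside Igfbp4, Top2a had a log2 fold change of 0.40 (adjusted p = 0.000201) and Smarce1 one of 0.12 (adjusted p = 0.102).

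Igfbp2 and Igfbp5 are neighbours on chromosome 1 that point towards each other, with 5457 bases between their ends. Igfbp2 (ENSMUSG00000039323.18, 72824503 to 72852474, plus strand) was measured at 811, 755 and 827 CPM in the knockout libraries and at 1043, 1161 and 1131 CPM in the control libraries. All 3 knockout values lay below the lowest control value. The log2 fold change came to -0.48 (SE 0.08, adjusted p = 0.000147). Igfbp5, which encodes a matrix-bound member of the family (ENSMUSG00000026185.8, 72857932 to 72874884, minus strand), was measured at 1696, 1379 and 1363 CPM in the knockout libraries and at 930, 1025 and 1037 CPM in the control libraries. Here all 3 knockout values lay above the highest control value, with replicate 1 the highest. Its log2 fold change was 0.57 (SE 0.10, adjusted p = 0.000242), and 0.44 without Bcat1-KO replicate 1 (adjusted p = 1.56e-05). The TPM ratio of Igfbp5 to Igfbp2 was 0.644, 0.562 and 0.507 in the knockout libraries, against 0.274, 0.272 and 0.282 in the control libraries. On their outer sides, Rpl37a beside Igfbp2 had a log2 fold change of -0.35 (adjusted p = 0.00779) and 6030407O03Rik beside Igfbp5 one of 2.57 (adjusted p = 0.000987). For the ratio of Igfbp5 to Igfbp2 the exact two-sided permutation p was 0.1, the smallest that 3 against 3 allows, and 0.133 after Benjamini-Hochberg adjustment over 4 ratios.

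Added up in TPM, the 4 expressed binding proteins came to 2997, 2845 and 2969 in the knockout libraries and to 2454, 2682 and 2676 in the control libraries. Igfbp2 made up 48.1% ± 1.44 of this sum in the knockout, against 72.9% ± 0.436 in the control. Igfbp3 made up 15.0% ± 0.435 in the knockout, against 1.08% ± 0.025 in the control. Igfbp5 took 27.4% ± 2.56 in the knockout, against 20.1% ± 0.272 in the control, and Igfbp4 took 9.48% ± 1.03 in the knockout, against 5.86% ± 0.15 in the control. In TPM the sum was higher in all 3 knockout libraries than in any control library. TPM is scaled within each library, so this separation depends on that scaling and was not tested. With limma-trend on log2(TPM + 1) the log2 fold changes of all genes moved by a median of 0.05 towards the knockout.

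**Figure D2:**
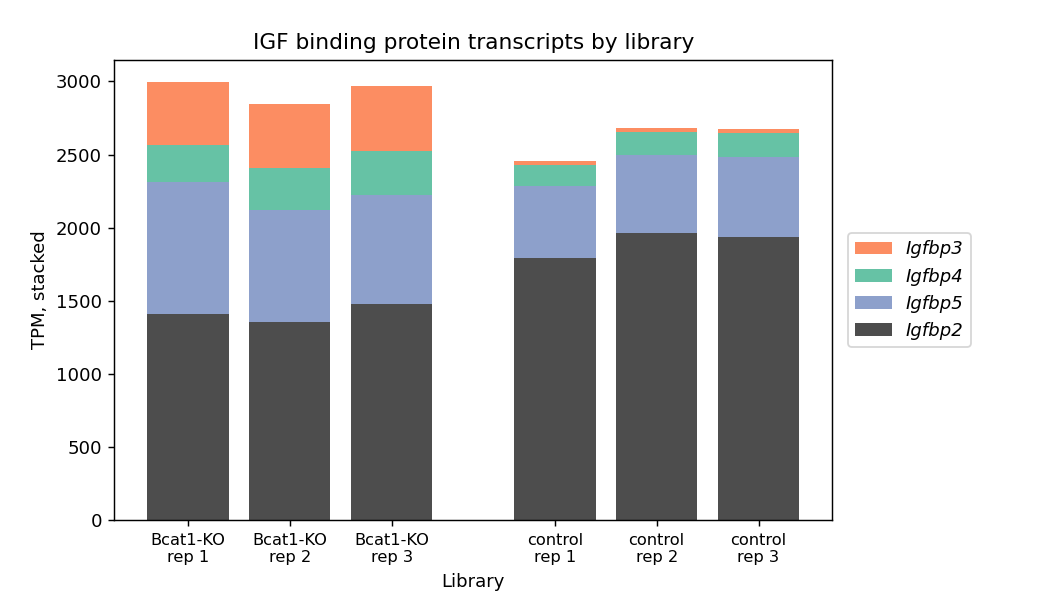
Stacked TPM of Igfbp2, Igfbp5, Igfbp4 and Igfbp3 in each library, Bcat1-KO on the left and control on the right. Igfbp3 fills 14.5% to 15.4% of each knockout bar and 1.06% to 1.10% of each control bar, and Igfbp2 is the largest part in every library.

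Fibroblasts and mural cells also make several binding proteins. Of 9 markers of those cells 5 were tested and all 5 fell, beside 30.3% of all tested genes called lower. The summed level of the 9 was 6.69 to 7.37 TPM in the knockout, against 35.4 to 38.5 TPM in the control. Of the binding proteins, Igfbp3, Igfbp4 and Igfbp5 rose and Igfbp2 fell. Dcn, an untested gene of that list, had 17, 18 and 10 counts in the knockout, against 3, 2 and 2 in the control. The part of such cells in these results was not tested. In bulk RNA, fewer cells of a type and less RNA per cell cannot be told apart.

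Igfbp7, a distant relative with low affinity for IGFs and a known product of blood vessels, was at or near 0 counts. It had 2, 0 and 0 counts on its own strand in the knockout, against 1, 2 and 1 in the control, and was not tested. On the opposite strand the gene held 44, 49 and 36 reads in the knockout, against 38, 46 and 44 in the control. Polr2b, an RNA polymerase II subunit gene on that strand, overlaps the last 85 bases of Igfbp7 (ENSMUSG00000036256.13, chromosome 5 from 77349240 to 77408041) and held 16810 counts over the knockout libraries and 13073 over the control libraries. The log2 fold change of Polr2b was 0.12 (adjusted p = 0.124), and that of Adgrl3 on the other side was 5.97 (adjusted p = 3.76e-12). In the 8 tested genes the opposite strand held at most 0.282% of the reads.

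Both receptors were expressed, and of them only Igf1r passed the test. Igf1r (ENSMUSG00000005533.10, chromosome 7 from 67952827 to 68233668) was measured at 143, 141 and 163 CPM in the knockout libraries and at 188, 170 and 193 CPM in the control libraries. The groups did not overlap, though the highest knockout library came close to the lowest control library. The log2 fold change came to -0.30 (SE 0.08, adjusted p = 0.00521). Of its neighbours Synm had a log2 fold change of -1.55 (adjusted p = 0.000285) and Arrdc4 one of 0.15 (adjusted p = 0.0995). Insr (ENSMUSG00000005534.10, chromosome 8 from 3122061 to 3279617) was measured at 131, 148 and 159 CPM in the knockout libraries and at 132, 123 and 140 CPM in the control libraries. The groups overlapped, and the log2 fold change of 0.15 (95% interval -0.03 to 0.33) did not pass the test (adjusted p = 0.125). Arhgef18, the nearest tested gene beside it, had -0.03 (adjusted p = 0.696).

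The call on Insr depended on 1 library and on its surroundings. Without Bcat1-KO replicate 1, its lowest knockout value, the log2 fold change was 0.21 (adjusted p = 0.0112). Without Bcat1-KO replicate 3, its highest knockout value, it was 0.07 (adjusted p = 0.487), and the other 4 libraries left out in turn gave 0.10 to 0.20, none past the threshold. No tested gene lay before Insr on chromosome 8, so its local window was cut short. It held Insr and genes at higher coordinates only, fewer than 51 in all. Their median was -0.34, and with that removed the log2 fold change of Insr was 0.49 (adjusted p = 0.000299). For Igf1r the local median was 0.15, and its log2 fold change with it removed was -0.45. The TPM ratio of Insr to Igf1r was 1.12, 1.28 and 1.19 in the knockout libraries and 0.856, 0.881 and 0.882 in the control libraries. It was above 1 in every knockout library and below 1 in every control library (exact two-sided permutation p = 0.1, the smallest possible, adjusted 0.133). Igf2r, the receptor that clears IGF-2 and carries lysosomal enzymes, had 205 ± 18.5 CPM in the knockout, against 198 ± 9.03 CPM in the control (log2 fold change 0.04, 95% interval -0.12 to 0.21, adjusted p = 0.638). Insrr, an orphan relative of both receptors, had 0 counts in the knockout, against 1 in the control.

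Both substrates, which couple the receptors to PI3-kinase, were lower by small amounts. Irs2 (ENSMUSG00000038894.7, chromosome 8 from 10984681 to 11008458) was measured at 138, 156 and 177 CPM in the knockout libraries and at 187, 185 and 202 CPM in the control libraries. The groups did not overlap, and the log2 fold change came to -0.28 (SE 0.09, adjusted p = 0.0133). It lies in a stretch of chromosome 8 with a local median of -0.22, and with that removed the log2 fold change was -0.07 (adjusted p = 0.532). Its neighbours were far from that median, with Col4a1, a basement membrane collagen gene, at a log2 fold change of 5.82 (SE 0.12) on one side and 3930402G23Rik at -2.95 (SE 0.18) on the other. Without control replicate 3 the call on Irs2 was also lost (log2 fold change -0.24, adjusted p = 0.0615). It was kept without Bcat1-KO replicate 1, at a log2 fold change of -0.22 (adjusted p = 0.00831).

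Irs1 (ENSMUSG00000055980.2, chromosome 1 from 82233101 to 82291416) was measured at 40.0, 32.4 and 34.5 CPM in the knockout libraries and at 50.4, 39.8 and 44.0 CPM in the control libraries. The groups overlapped by the closest pair, knockout replicate 1 and control replicate 2. The log2 fold change came to -0.33 (SE 0.10, adjusted p = 0.0132). The call was lost without Bcat1-KO replicate 2 (adjusted p = 0.0523) and without control replicate 1 (adjusted p = 0.0796). Without Bcat1-KO replicate 1 the log2 fold change was -0.44 (adjusted p = 0.000861). Strand mattered for the level of Irs1, since the unstranded counts held only 65.9% of the strand-matched ones. Gm9747, a gene model on the other strand, overlaps 2822 bases of it and had 0 strand-matched counts in every library. With unstranded counts the log2 fold change was -0.33. Beside Irs1, Dock10 at 1474573 bases had a log2 fold change of 6.63 (adjusted p = 1.85e-12) and Rhbdd1 one of -0.12 (adjusted p = 0.0965). The TPM ratio of Irs2 to Irs1 was 6.46 ± 1.28 in the knockout, against 6.24 ± 0.761 in the control (exact two-sided permutation p = 0.8).

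**Figure D3:**
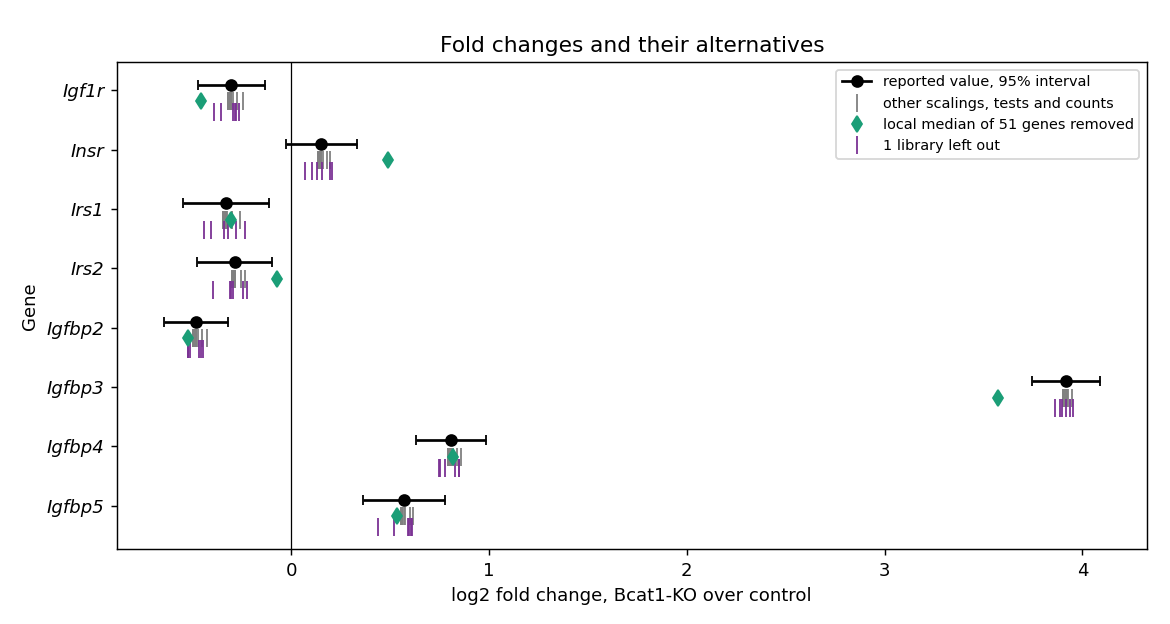
Log2 fold change, Bcat1-KO over control, of the 8 tested genes with its 95% interval, and below each the values under other scalings, tests and counts, with the local median of 51 genes removed, and with 1 library left out. Igfbp3 stays between 3.58 and 3.95 in all of them, and with the local median removed Insr lies at 0.49 and Irs2 at -0.07. For Insr that median covers fewer than 51 genes.

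The other genes of the pathway were described by 9 lists holding 75 genes besides the 10 above. Of these, 62 were tested, 19 were higher and 19 lower. Their median was 0.01 on the log2 scale, beside 0.01 for all tested genes. These counts lie near the 32% higher and 30.3% lower among all tested genes. Of 10 tested negative regulators of the receptors 4 were higher and 3 lower (median 0.13), beside 62.3% of all tested genes called. Grb14, an adaptor that binds the active insulin receptor and blocks its kinase, rose to 57.7, 39.2 and 40.7 CPM in the knockout libraries, against 1.59, 1.33 and 0.792 CPM in the control libraries (log2 fold change 5.20, SE 0.21, adjusted p = 9.65e-10). Knockout replicate 1 was its highest library. Socs2, a suppressor of cytokine signalling that restrains the growth hormone and IGF axis, fell to 1.27, 1.43 and 1.84 CPM in the knockout libraries, against 44.7, 42.1 and 45.4 CPM in the control libraries (log2 fold change -4.86, SE 0.12, adjusted p = 1.48e-11). Enpp1, which encodes an ectoenzyme known to bind and inhibit the insulin receptor, rose to 35.7 ± 2.83 CPM in the knockout, against 8.26 ± 0.604 CPM in the control. Socs3 fell to 17.6 ± 1.90 CPM in the knockout, against 29.9 ± 2.92 CPM in the control. Members of this list thus changed in both directions.

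Of 8 other tested substrates and adaptors 3 were higher and 3 lower (median -0.12), beside 32% higher and 30.3% lower of all tested genes. Gab2, a docking protein for PI3-kinase, rose to 77.3 ± 7.77 CPM in the knockout, against 27.5 ± 1.90 CPM in the control. Shc1, the adaptor that leads to RAS and ERK, fell to 58.8 ± 5.13 CPM in the knockout, against 123 ± 0.894 CPM in the control, and smaller falls were called for Sh2b2 (log2 fold change -0.45) and Gab1 (-0.38). The call on Gab1 was lost with the local median removed (adjusted p = 0.396). Of 4 further binding protein genes, Igfbpl1 was higher at 0.458 ± 0.0932 CPM in the knockout, against 0.0743 ± 0.0142 CPM in the control (log2 fold change 2.56, adjusted p = 0.000302), which are 51 and 7 counts over each group. Igfbp6 had 0.309 ± 0.129 CPM in the knockout, against 0.503 ± 0.124 CPM in the control (adjusted p = 0.123), and Igfals, the partner of Igfbp3 in blood, had 4, 4 and 2 counts in the knockout, against 4, 0 and 1 in the control. Of 6 tested proteases and partners 1 was higher and 1 lower (median 0.07), and Htra1, a secreted serine protease known to cleave binding proteins, fell to 34.3 ± 2.17 CPM in the knockout, against 92.0 ± 7.03 CPM in the control. Both tested IGF2 mRNA-binding proteins fell, Igf2bp3 to 10.5 ± 1.27 CPM in the knockout, against 29.8 ± 1.85 CPM in the control, and Igf2bp2 to 1.55 ± 0.466 CPM in the knockout, against 2.93 ± 0.0885 CPM in the control.

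Downstream, 5 of 19 genes of the PI3K and AKT pathway were higher and 5 lower (median 0.00). Among all tested genes 32% were higher and 30.3% lower. Of 3 regulatory subunit genes of PI3-kinase in the list, 1 rose, 1 fell and Pik3r3 did not pass the test, at 98.4 ± 10.3 CPM in the knockout, against 99.7 ± 2.82 CPM in the control (log2 fold change -0.02, 95% interval -0.19 to 0.15, adjusted p = 0.838). Pik3r1, which encodes p85-alpha, rose to 178, 209 and 218 CPM in the knockout libraries, against 88.4, 86.4 and 96.7 CPM in the control libraries (log2 fold change 1.16, SE 0.08, adjusted p = 1.95e-07). Pik3r2, which encodes p85-beta, fell to 202 ± 12.2 CPM in the knockout, against 305 ± 11.1 CPM in the control (log2 fold change -0.60, and -0.26 with the local median removed). The AKT phosphatase gene Phlpp1 and the catalytic subunit gene Pik3cb rose by 0.62 and 0.53 on the log2 scale, and Pik3cb by 0.24 with the local median removed. Of 14 FOXO factors and FOXO targets that are not among the 10, 5 were higher and 5 lower (median 0.13). Foxo1 rose to 22.6 ± 1.39 CPM in the knockout, against 11.4 ± 0.593 CPM in the control, and Trib1 to 87.1 ± 2.20 CPM in the knockout, against 46.2 ± 3.29 CPM in the control. Foxo6, a FOXO factor of the nervous system, fell to 0.388, 0.078 and 0.275 CPM in the knockout libraries, against 14.1, 13.9 and 13.6 CPM in the control libraries (log2 fold change -5.81, SE 0.26, adjusted p = 1.80e-09). Bcl2l11, a pro-apoptotic gene that FOXO factors are known to activate, fell to 23.1 ± 1.94 CPM in the knockout, against 42.0 ± 0.692 CPM in the control.

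**Figure D4:**
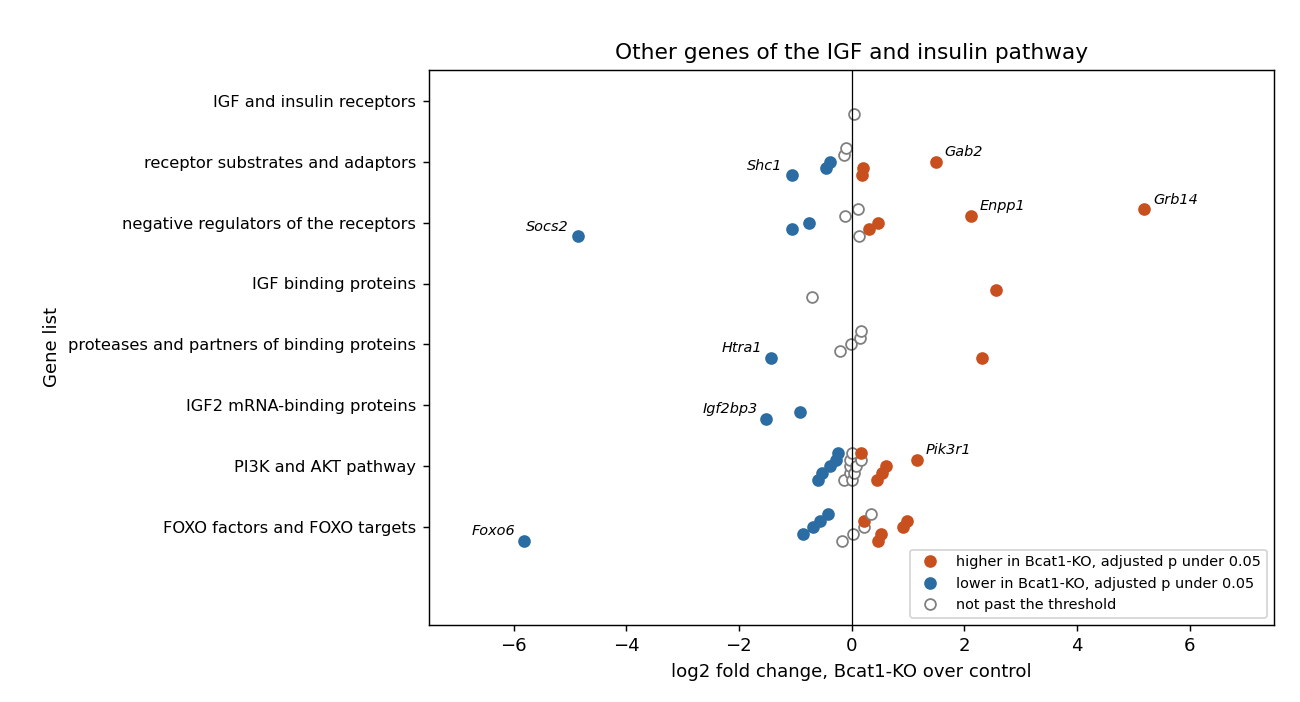
Log2 fold change, Bcat1-KO over control, of the tested pathway genes that are not among the 10, by list, with filled points past the threshold and open points not past it. The points spread furthest among negative regulators of the receptors, from Socs2 at -4.86 to Grb14 at 5.20, and Foxo6 at -5.81 stands alone in its list.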

How the data were processed

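RNA was extracted on columns with DNase digestion and made into stranded mRNA libraries, per the labels' protocols. The submitters' processing notes name STAR 2.5.3a, featureCounts and the build mm10. Which annotation release was counted is not stated in the labels. The deposited counts are raw reads per gene, without regard to strand and by strand, per the file headers. The reverse-strand counts, 96.4% to 96.5% of stranded reads, were tested. The deposited TPM values, scaled by the authors within each library, served for levels between genes.

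Genes passing edgeR 4.0.16's expression filter (14020, without 0.0511% of counts) were scaled by TMM and tested in all 6 libraries with the robust quasi-likelihood test and Benjamini-Hochberg adjustment at 0.05, with no covariate. The script was tested on simulated data. Alternatives used DESeq2 1.42.0, limma 3.58.1 (voom and trend), scaling by DESeq2 size factors or total count, unstranded counts, and no filter on low counts. A further setting left out mitochondrial genes and the 10 most abundant genes. The remaining settings are named in the closing section. Promoter windows came from RefSeq tables, in which 9 of the 10 genes matched, and gene types from GENCODE M21. The named genes are the 10, Bcat1, the nearest tested gene on either side of each, and from every list up to 4 further genes, those past the threshold that changed most at a mean log2 CPM of at least 0, plus every ligand, receptor and binding protein. One gene that this rule names is not reported here. Members, lists and motifs were chosen with earlier results of these data known. No replicate pair agreed within counting noise (chi-square per gene 4.01 to 33.2). Analyses used R 4.3.3 and Python 3.11.15.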

Additional observations from a re-analysis of the deposited data

How the results depend on the processing

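Across 17 alternative settings Igfbp3 and Igfbp4 kept their direction and their side of the threshold, and no direction of the 8 tested genes was reversed. Against a 1.5-fold threshold, 3043 genes in all were called in place of 8736, 0 of the 10 genes were called lower in place of 4, and 8 and 6 pathway genes were higher and lower in place of 19 and 19. With limma-trend on log2(TPM + 1), 2 of the 10 were called lower, since Irs1 (adjusted p = 0.0651) and Irs2 (adjusted p = 0.07) did not pass. The cause was not tested. With 1 library left out, 7638 to 9207 genes in all were called, 3 to 4 of the 10 higher and 3 to 4 lower, and 15 to 18 pathway genes higher and 18 to 23 lower. The totals without control replicate 1, 2 and 3 were close, at 7638, 7657 and 7719. The highest total was without Bcat1-KO replicate 1. With the local median removed Shc1 was at -0.67, and with limma-trend Igf2bp2 was at -0.43 and Foxo6 at -3.77 on the log2 scale. Scalings moved the median of all genes by at most 0.05 on the log2 scale. Deviations of same-numbered libraries correlated at -0.04, -0.11 and 0.26, and those of differently numbered libraries at -0.18 to 0.229. With 3 libraries per group these values cannot decide whether replicate numbers pair the samples. With a replicate block 8656 genes were called, and 3 of the 10 were higher and 4 lower. Depth limits Igf1, Igfbp7 and the insulin genes, whose counts lay at or under 3 in each library.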
